A study of Bos taurus with 12 samples.

Results

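The members described here are the loci of both deposited tables that lie on cattle chromosome 18 between 57.1 and 57.45 Mb of the ARS-UCD1.2 build. They were chosen by position, around a stretch where loci with a difference between the groups had been seen in these same tables, so every count and difference given for them is a description and carries no test. The rule took 303 of the 17730 listed single CpG sites and 303 of the 7290 listed tiles, which are windows of 500 bp. Sperm DNA of 12 bulls had been profiled by enzymatic methylation sequencing (EM-seq), a method that converts unmethylated cytosines with enzymes instead of bisulfite. The labels give 6 samples the condition low daughter fertility and 6 the condition high daughter fertility, all of them sperm from male cattle, and give no breed, age, batch or pairing. The labelled tissue could not be checked against markers, because both tables hold only the authors' comparison of the groups.

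Methylation of CpG cytosines in sperm is laid down during male germ cell development, and in mammals much of it is erased again after fertilisation. The window covers part of a gene-rich region of cattle chromosome 18 that has been studied for calving and fertility traits in dairy breeds. On its low-coordinate side lie genes of the sialic acid-binding Ig-like lectins (SIGLECs), cell surface receptors that are known from human and mouse as regulators of myeloid immune cells. Its centre is a gene that the authors' annotation names as a zinc finger protein. Zinc finger proteins of the C2H2 type are a large class of DNA-binding proteins, of which many recruit repressors to chromatin. Whether this gene belongs to that class was not checked.

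Each locus has a methylation difference in percentage points, a p-value and a q-value, all from the authors. The difference is signed, but neither the labels nor the headers say which group was subtracted from which, so positive and negative are given as listed and are assigned to neither high nor low daughter fertility. No values per sample lie behind these numbers here, so no spread between bulls can be set beside them, and the read depth is unknown. A locus is called below when the authors' q is under 0.05 and the difference is at least 10 points. The authors' q proved to be tied to the chromosome. In the site table it equalled the Benjamini-Hochberg value over the 1021 listed sites of chromosome 18 times 0.836, within 1% at 1021 of 1021 sites. In the tile table the factor was 0.478, within 1% at 632 of 632 tiles. Because of that factor, the listed q lay below the p of the same locus at 161 of the 303 tiles and 43 of the 303 sites in the window. The factors of other chromosomes are not given here. Shares of calls or of q under 0.05 over all listed loci may therefore rest on another scale of q than those of the window.

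Listed loci were crowded into the window and then stopped on both sides. It held 29.7% of the listed sites of chromosome 18 and 47.9% of the listed tiles. Among stretches of 350 kb laid end to end along the chromosome, it had the most of both, and the next had 259 sites and 159 tiles. The first listed site was at 57111415 and the last at 57353110. The nearest listed sites beyond them were 629 kb and 591 kb away, and for tiles these gaps were 256 kb and 490 kb. No listed site lay in the last 96.9 kb of the window.

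Of the 303 sites in the window 16 (5.28%) were called, and 15 of them had a negative difference. Over all listed sites 5.94% were called, so calls were about as frequent in the window as among all listed sites. Over all listed sites 4.78% were called negative and 1.16% called positive. These were 848 and 205 of the 1053 calls, so most calls were negative there too. On the rest of chromosome 18, 22 of 718 sites (3.06%) were called. Over all its sites the window had a median difference of -1.61 points, with 202 negative, 97 positive and 4 at 0. The median was -0.99 points on the rest of chromosome 18 and -1.01 points over all listed sites. Negative sites made up 66.7% in the window and 59.0% over all listed sites. A difference of at least 10 points was listed at 37 sites (12.2%), against 12.1% over all listed sites. At 21 of these 37 sites q was 0.05 or more, and 20 of those 21 were negative. Of the 20, 11 lie in 1 stretch, upstream of the gene ENSBTAG00000051816. Over all listed sites, 1094 of the 2147 of at least 10 points had q of 0.05 or more, and 770 of these 1094 were negative.

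Of the 303 tiles in the window 6 (1.98%) were called, all of them negative, against 2.78% of all listed tiles called, with 2.63% called negative and 0.151% called positive. Among the 203 calls over all listed tiles, 192 were negative. The rest of chromosome 18 had 3 called tiles among 329. Negative tiles made up 73.3% in the window and 71.6% over all listed tiles. Tiles step by 100 bp and overlap, so a run of tiles with the same sign is not a run of separate observations. With no demand on the size of the difference, q was under 0.05 at 159 window tiles (52.5%), against 71.8% of all listed tiles. On the rest of chromosome 18, where the factor is the same, it was 58.4% of tiles. The corresponding share of sites was 10.6% in the window, 4.18% on the rest of chromosome 18 and 8.11% over all listed sites. Of the 159 window tiles with q under 0.05, 147 differed by less than 5 points, and the smallest difference among them was 0.31 points. On the rest of chromosome 18 it was 156 of 192 such tiles. Over all listed tiles it was 4112 of 5236, with a smallest difference of 0.06 points. Every window tile of at least 10 points also had q under 0.05, so no tile missed the call for its q alone. The same held for all 203 tiles of at least 10 points over all listed tiles, so it is not particular to the window.

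**Figure D1:**
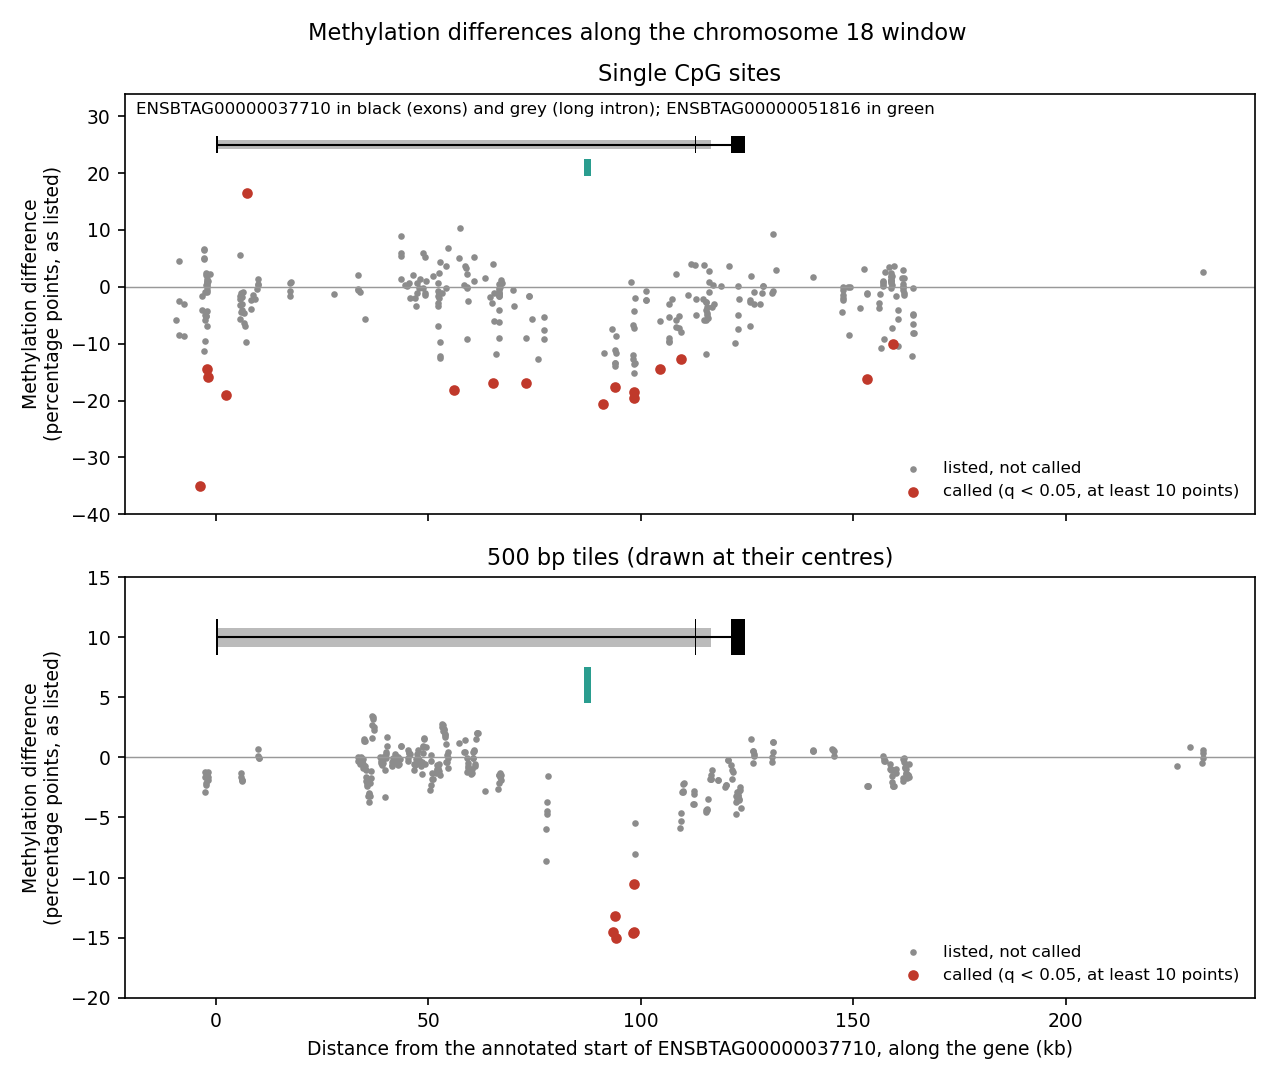
Methylation differences of the 303 listed sites (upper panel) and 303 listed tiles (lower panel) in percentage points, as listed, against the distance in kb from the annotated start of the zinc finger gene ENSBTAG00000037710, which runs to the right. Called loci are red; the 6 called tiles sit together beside ENSBTAG00000051816 (green), while the 16 called sites are spread from 3879 bp before the start to 159334 bp past it.

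The annotation places 6 genes in the window, and most loci belong to 2 of them. ENSBTAG00000037710, named zinc finger protein 331 in the authors' annotation, was the closest gene of 186 sites and 176 tiles. Its NCBI number, 100336984, carries the symbol LOC100336984 in the RefSeq table of the later assembly ARS-UCD2.0, where the symbol ZNF331 belongs to another gene of chromosome 18, number 516156. What is known of ZNF331 in other species is therefore not carried over to it. ENSBTAG00000051816, a protein-coding gene with no name in the files, was the closest gene of 103 sites and 111 tiles. The rest fell to SIGLEC-type genes and to a second gene without a name, ENSBTAG00000048678.

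The zinc finger gene lies on the minus strand and its annotated 5′ untranslated region runs from 57343362 to 57343755. One of its annotated introns spans positions 57227360 to 57343280, a length of 115921 bp, and ENSBTAG00000051816 sits inside it on the opposite strand. The authors' classes give each locus by its closest feature, and a locus far from the ends of this intron is therefore often classed by another feature. By position, 180 sites and 204 tiles of the window lie within the intron. Of these sites the authors' table classes 56 as within a feature, 35 as promoter, 86 as distal intergenic and 3 as downstream. Of the 16 called sites 11 lie within the intron by position, and the authors' class is promoter for 6 of them, distal intergenic for 3 and within for 2. The other 5 called sites lie before the start of the gene (3) or beyond its end (2). All 6 called tiles lie in the intron too, 3 of them classed as promoter and 3 as distal intergenic.

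Upstream of the zinc finger gene a few called sites stood among others near 0. The 32 listed sites there lie between 57345211 and 57347634 and had a median difference of -0.31 points, with 17 negative and 15 positive. The lowest difference of the window was found here, 3879 bp from the 5′ untranslated region, where the authors' deposited table has -35.0 points with q = 2.81e-07 for position 57347634. No other listed site lay within 500 bp of it, and for the nearest one, 691 bp away, the authors' deposited table has -4.02 points. The authors' deposited table gave -14.5 points (q = 0.000104) at position 57345829 and -15.9 points (q = 0.0253) at 57345633. Around these sites the values were mixed, since 15 other listed sites within 500 bp of 57345633 had a median of 0.60 points and only 6 of them were negative. Within 500 bp of 57345829, 21 other listed sites had a median of -0.08 points, and 11 of them were negative. For the nearest of these, 6 bp away, the authors' deposited table has -4.18 points. The 10 tiles of this stretch were all negative but small, from -2.87 to -1.18 points, and none covered position 57347634.

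Inside the long intron, the stretch annotated to it by the authors (39 sites from 57300225 to 57341442) had a median of -1.22 points. It held the one positive call of the window, position 57336409, for which the authors' deposited table gives 16.5 points with q = 0.0311. The listed sites within 500 bp of it went the other way, since the authors' deposited table gave -9.62 points 253 bp away and -6.84 points at the other one, neither of them called. For the other call here, position 57341442, the authors' deposited table gives -19.0 points with q = 0.0331, and no listed site lay within 500 bp of it. The 76 tiles there had a median of -0.32 points, and their values ran from -3.72 to 3.47 points. Most sites and tiles of this stretch were thus near 0, with values on both sides of it.

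The lowest median differences of the 9 stretches lay upstream of ENSBTAG00000051816. Its annotated coding sequences run on the plus strand from 57255398 to 57257102. Of the 22 listed sites between 57245107 and 57252597, for which this gene's first listed coding segment is the closest feature, 21 were negative. Their median was -12.3 points, from -20.7 to 0.85 points. Of these sites 15 differed by at least 10 points and 4 were called. The lowest lay 2801 bp from the coding sequence, and the authors' deposited table gives -20.7 points with q = 0.00789 for this position, 57252597. The authors' deposited table also lists the neighbours 57245468 and 57245479, which are 9930 and 9919 bp away, with -19.5 points (q = 0.0165) and -18.5 points (q = 0.00317). For the fourth call, 57249751, the authors' deposited table gives -17.7 points with q = 0.0163. The 11 sites of this stretch with at least 10 points that missed the q threshold were all negative, as were the called ones.

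The tiles over the same stretch were the only called tiles of the window. All 8 listed tiles there were negative, with a median of -13.8 points, and 6 of them were called. They overlap and merge into 2 regions, 57245101 to 57245800 (700 bp) and 57249301 to 57250600 (1300 bp), so they are not 6 separate observations. For the first region the authors' deposited table gives called tiles of -10.5 points (q = 2.65e-23), -14.5 points (q = 1.85e-57) and -14.6 points (q = 4.91e-61). It holds 11 listed sites, all negative, of which 2 were called, with a median of -12.7 points. For the second region the authors' deposited table gives -15.0 points (q = 7.28e-31), -13.2 points (q = 1.79e-26) and -14.6 points (q = 1.02e-26). It holds 8 listed sites, again all negative, with 1 call and a median of -12.5 points. Without this stretch, the window had 12 called sites among 281 (4.27%), 11 of them negative, and no called tile among 295.

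Downstream of ENSBTAG00000051816 most differences were closer to 0. The 81 listed sites from 57266513 to 57299342 had a median of -1.01 points, with 52 negative. Of these, 3 were called and all were negative. The authors' deposited table has them at -17.0 points (q = 0.00826) for 57270857, -17.0 points (q = 0.00137) for 57278560 and -18.1 points (q = 0.00709) for 57287634. Tiles closest to the gene on this side had the lowest median. Counted in steps of 10 kb, the 6 tiles starting from 57260000 on had a median of -4.58 points, the 8 from 57270000 on -1.54 points, the 36 from 57280000 on 0.31 points and the 52 from 57290000 on -0.33 points. For the lowest of them, which starts at 57265901 and lies 8799 bp from the gene, the authors' deposited table gives -8.59 points with q = 1.59e-15.

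On the other side, between the upstream stretch and the last exons of the zinc finger gene, differences were negative but smaller. The 21 sites from 57230999 to 57242523 had a median of -5.38 points, with 18 negative. Both calls there lie in the authors' promoter class of the zinc finger gene, for a coding segment inside the gene that ends at 57230971. The authors' deposited table has -12.7 points (q = 0.00221) for 57234403 and -14.4 points (q = 0.00789) for 57239217. The 11 tiles there were all negative, with a median of -3.07 points. In the last exons and short introns, the 27 sites had a median of -3.04 points with no call, and the 35 tiles were all negative at a median of -2.74 points. Some of these loci sit in an annotated intron from 57227360 to 57230890, so by position they also lie within the long intron. Beyond the 3′ end the 67 sites had a median of -0.23 points, with 35 negative and 29 positive. For the 2 calls there, 34710 and 28668 bp from the gene, the authors' deposited table gives -10.1 points (q = 0.0211) and -16.3 points (q = 0.0311).

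**Figure D2:**
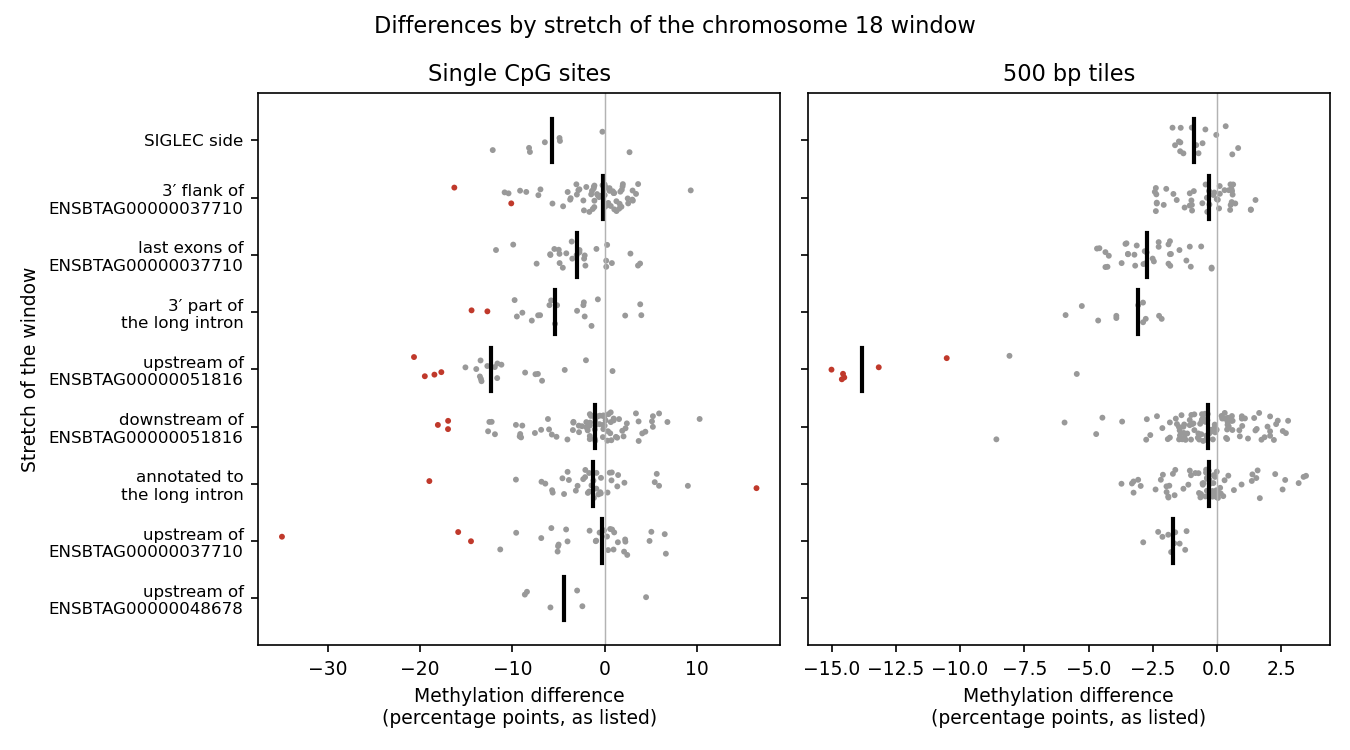
Differences of single sites (left) and tiles (right) in percentage points, as listed, in 9 stretches of the window taken from the authors' annotation and ordered by position from low (top) to high (bottom); each dot is a locus, red dots are called, and black bars are medians. The stretch upstream of ENSBTAG00000051816 has the lowest medians, -12.3 points for sites and -13.8 points for tiles. The stretch upstream of ENSBTAG00000048678 has sites but no listed tile, so it is empty on the right.

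The SIGLEC-type genes had few listed loci and no call. Sialic acid-binding Ig-like lectin 13 (ENSBTAG00000037537) was the closest gene of 7 sites and 10 tiles, all at least 35921 bp past its 3′ untranslated region. All 7 sites were negative, with a median of -6.48 points, and for the lowest the authors' deposited table gives -12.1 points with q = 0.0543. The 10 tiles were all negative with a median of -1.42 points. Myeloid cell surface antigen CD33 (ENSBTAG00000049494), a sialic acid receptor of myeloid cells in humans, has 1 site of 2.70 points and 5 tiles from -0.45 to 0.82 points, as the authors' deposited tables give them. CD33 antigen-like (ENSBTAG00000004608) has 1 tile, of -0.72 points in the deposited table of the authors. Upstream of ENSBTAG00000048678, 5 of 6 sites were negative, the median was -4.43 points and none was called. No listed locus of the window was annotated to a kallikrein, a CEACAM gene, a formyl peptide receptor, SPACA6, the let-7e, miR-99b and miR-125a cluster, HAS1, CTU1, PPP2R1A, NKG7, CLDND2, LIM2, VSIG10L, ETFB or the LILR and KIR families. Other genes named as zinc finger genes on chromosome 18 had 16 listed sites over 12 genes and 16 listed tiles over 7 genes. None of these loci was called, which is no contrast with the window, since 5.94% of all listed sites and 2.78% of all listed tiles were called and the loci are few.

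How far a called site was matched by the sites around it differed along the window. Of the 16 called sites 13 had at least 1 other listed site within 500 bp. Over these 13, the signs were the same in 55 of the 85 pairs of a called site and a neighbour (64.7%). That is close to the 66.7% of all window sites that were negative. At 8 of the 13 the median of the neighbours was -5 points or lower, and at the other 5 it lay within 5 points of 0. Of the 8, 4 lie upstream of ENSBTAG00000051816, where the medians of the neighbours ran from -12.5 to -11.6 points. Among these 4, the sites 57245468 and 57245479 are neighbours of each other. At 57252597, and at 57239217 and 57270857 among the rest of the 8, the median is the value of only 1 neighbour. One of the 8 is the positive site at 57336409, whose neighbours are negative. By contrast, the called site 57184421 stood among 9 neighbours with a median of 1.70 points, of which 1 was negative. Neighbouring sites share reads, so they are not separate observations of a difference.

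**Figure D3:**
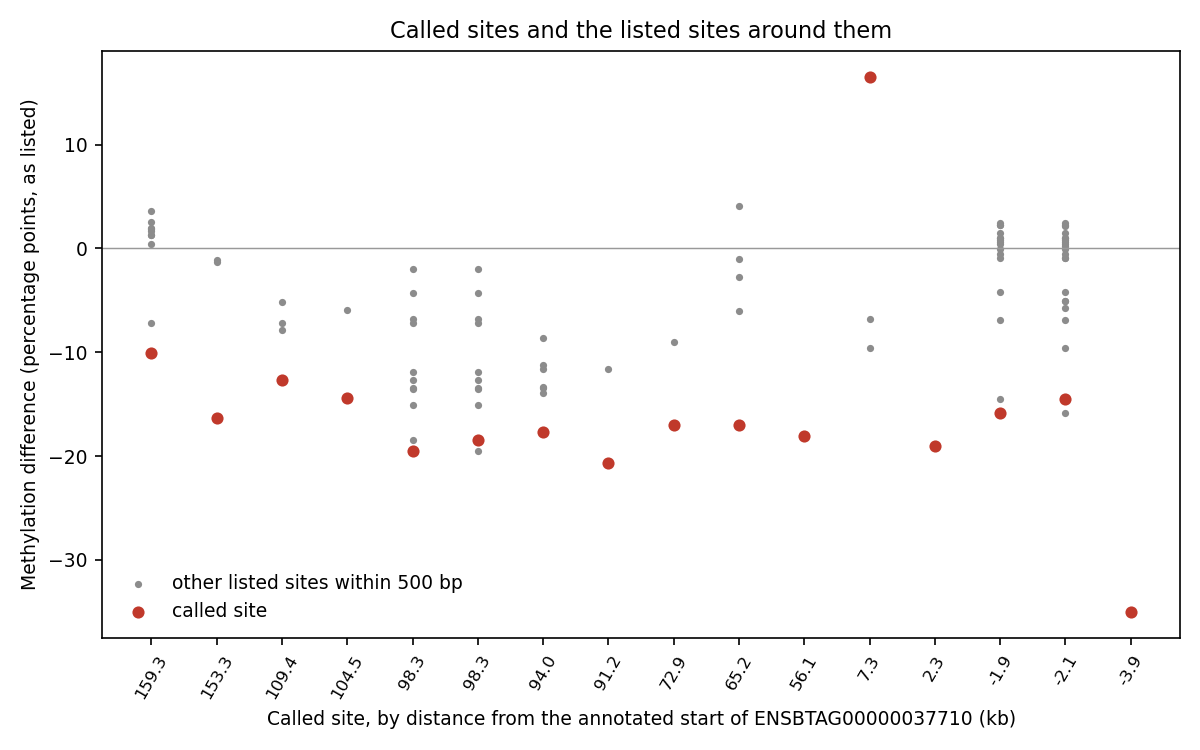
Each called site (red) with the other listed sites within 500 bp of it (grey), as methylation differences in percentage points, ordered by position and labelled by distance in kb from the annotated start of ENSBTAG00000037710. Upstream of ENSBTAG00000051816 (98287 to 91158 bp from that start) every grey point is below 0, whereas before the start of the zinc finger gene the points lie on both sides of 0.

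Both cytosines of a CpG were listed for 27 CpGs, so the 303 sites stand for 276 CpGs. Signs matched between the strands at 22 of the 27, with 17 negative and 5 positive. The median gap between the strands was 2.34 points, and the largest was 16.7 points. One of these CpGs held a call, at 57234403, where the authors' deposited table has -12.7 points on the plus strand and -7.90 points (q = 0.0834) on the minus strand. No CpG was called on both strands.

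Tiles and the sites inside them gave the same sign in most cases. Of the 303 tiles 181 held a listed site, and 122 of these (67.4%) matched the sign of their sites, averaged. Both were negative at 90 of the 122. Most sites and tiles of the window were negative, which by itself makes equal signs more frequent. The Spearman correlation between the tile value and that mean was 0.65 over the 181 tiles, which overlap and share their reads with the sites, and it is given as a description only. All 6 called tiles held a listed site and 5 held a called one. Of the 16 called sites 8 lay in a listed tile, 3 of these in a called tile, and the other 8 lay in no listed tile. The authors' deposited tables give -14.6 points for the tile from 57250101 to 57250600 and -7.50 points (q = 0.395) for its 1 listed site.

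**Figure D4:**
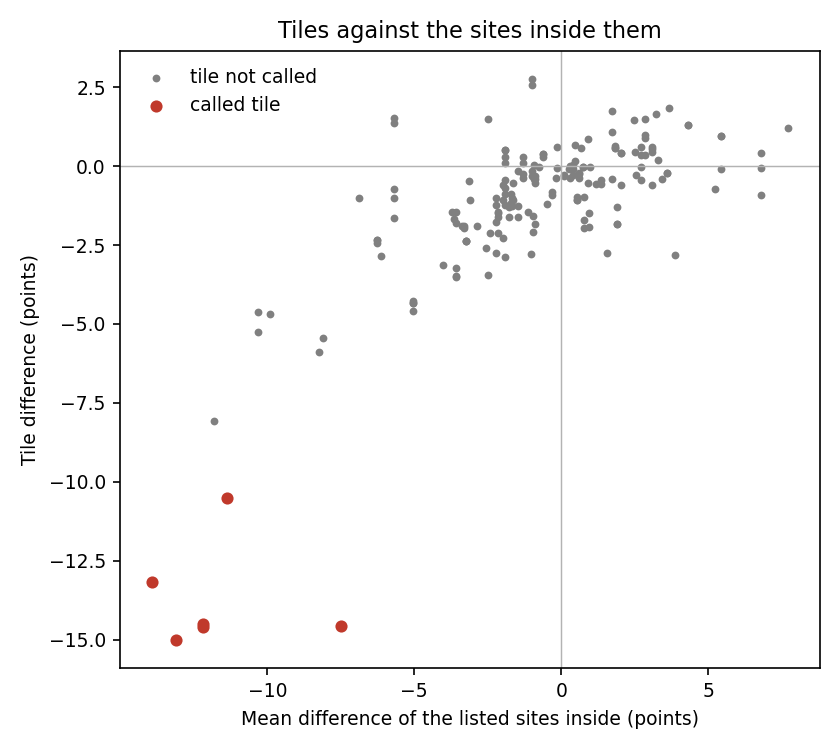
Difference of each of the 181 tiles that hold a listed site against the mean difference of those sites, both in percentage points as listed; called tiles are red. The 6 called tiles lie below all others, between -15.0 and -10.5 points on the tile axis.

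The values nearest to the thresholds show how the calls were cut. The called site with the smallest difference was 57184421, and for the site just short of it with q under 0.05, 57221627, the authors' deposited table gives -9.91 points with q = 0.0253. The called site with the largest q was 57341442. Just beyond the q threshold, 3 sites of at least 10 points were tied at q = 0.0522, and the authors' deposited table gives -11.8 points for 57228379, -13.5 points for 57245349 and -11.6 points for 57252543. The last 2 of these lie in the stretch upstream of ENSBTAG00000051816. Among tiles the authors' deposited table has -10.5 points as the smallest called difference and -8.59 points as the largest one not called.

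Elsewhere on chromosome 18 the called sites stood alone or in groups of up to 6. The group of 6 lay between 50714582 and 50739417, and the authors' deposited table gives all of its sites as negative, from -23.3 to -12.4 points. The other 3 called tiles of the chromosome lay close to it, between 50742601 and 50743400, and the authors' deposited table gives -10.4 to -10.3 points for them.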

How the data were processed

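EM-seq was run on DNA extracted with a column kit, per the labels. Trimmomatic, Bismark, methylKit and the build ARS-UCD1.2 are named in the submitters' processing notes. Their versions, roles and settings are not given in the sources used here. For each locus the authors deposited its difference in methylation, with p-value and q-value, and the closest annotated feature with its distance. The difference is in percentage points and, per the file headers, has no stated direction. For a locus within a feature that distance runs to the feature's edge, so such loci were counted as at 0 bp from the gene.

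Loci of the window were taken from both tables with Python 3.11.15 and pandas 2.3.3, counted by sign and call, and set beside all listed loci. A gene was near a call within 10 kb. Stretches follow the closest feature of each locus. The Benjamini-Hochberg values were computed from the authors' p. The 4 NCBI numbers in the window's annotation all matched the RefSeq table, which was used only for symbols. The members, lists and thresholds were chosen with earlier results of these data known, and the stretches and the neighbour distance of 500 bp after the values were seen. Named genes are those with a call, those with the most loci and those of the lists. No test between groups was run and the counting code was tested on simulated data. No DNA sequence was used here.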

Additional observations from a re-analysis of the deposited data

How the results depend on the processing

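Leaving out each bull in turn and changing the coverage minimum were not run, as both need values per sample. No paired analysis was possible because the tables hold no values per sample. Whether the authors' q allows for variation between bulls is not given in the sources used here.

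The 16 called sites became 9 at q below 0.01, 30 at q below 0.1, 29 at 5 points and 2 at 20 points. The 6 called tiles became 12 at 5 points, 1 at 15 points, 0 at 20 points and 2 when merged into regions. A difference of at least 5 points was listed at 1124 of all 7290 tiles, against 12 of 303 in the window. For sites, q was under 0.05 at 32 of 303 in the window, 3 of them under 5 points. Over all 17730 listed sites it was under 0.05 at 1438, 70 of them under 5 points. For the other thresholds, counts over all listed loci are not given here. Negative calls made up 93.8% of called sites. That share was 100% at q below 0.01, at 20 points and with 1 vote per gene, and 66.7% over all listed sites of the window. Called loci within 10 kb belonged to 2 genes, and 1 when only loci inside a gene counted. Called sites joined over 10 kb formed 4 clusters, 14 at 1 kb and 1 at 100 kb, and called tiles 1 cluster, 2 at 1 kb. Counts were 16 and 6 with the window widened or narrowed by 50 kb and, chosen after seeing the data, with Benjamini-Hochberg values over chromosome 18 or over all listed loci of each table.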

Other observations

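The lowest site of the window, 57347634, has no listed site within 500 bp and lies in no listed tile. In the upstream stretch of ENSBTAG00000051816, by contrast, 21 of 22 sites are negative, and only 4 of the sites passed the q threshold. Its 8 tiles are all negative too, at a median of -13.8 points, but that shared sign is not particular to this stretch. All 10 tiles upstream of the zinc finger gene are negative, at a median of -1.73 points. So are the 35 tiles in its last exons (-2.74 points) and the 11 in the 3′ part of the long intron (-3.07 points). The authors' deposited table gives -4.70, -5.93 and -8.59 points for the tiles starting at 57265701, 57265801 and 57265901, which hold no listed site.

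The authors' classes place 86 sites and 102 tiles of the window as distal intergenic although they lie within an annotated intron of 115921 bp. A count of intergenic and intronic loci from the class column would therefore differ from one made by position.

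The q-values of each table were scaled on chromosome 18 by its own factor, 0.836 for sites and 0.478 for tiles. In the window, 6 tiles had q below 0.05 while their unadjusted p was 0.05 or more, and none of them was called.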
